A study of Mus musculus with 8 samples.

Results

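The genes described here encode the secreted and membrane-bound metalloproteinases named ADAM, ADAMTS and MMP, and the TIMP proteins that inhibit them. Members were taken by gene symbol (Adam, Adamts, Mmp or Timp followed by a digit), with no regard to their values. Of 22180 genes with a probe set assigned to 1 symbol, 77 belonged to the group, namely 33 ADAM, 18 ADAMTS, 22 MMP and 4 TIMP genes. Probe sets of Adam34 and 1 probe set of Mmp24 are shared with another symbol and were left out, and Adamts2 and Mmp15 were not analysed here.

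The study compared AML12 cells, an established line of mouse hepatocytes, with AML12 cells from which the VWA8 gene had been deleted by CRISPR/Cas9. VWA8 is an ATPase of mitochondria. Separate cultures of 4 wild-type and 4 knockout samples were differentiated, both in a medium with serum, insulin, transferrin, selenium and 40 ng/ml dexamethasone, a synthetic glucocorticoid. Their total RNA was hybridised to Affymetrix mouse arrays, 1 array per culture. The number of knockout clones is not stated in the labels, and an effect of the deletion and one of the clone cannot be told apart.

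These proteases share a catalytic zinc site and are made as inactive precursors. ADAM10 and ADAM17 are the main sheddases, which cut growth factors, cytokine receptors and adhesion proteins from the cell surface, and several other ADAM proteins lack a working site and act in adhesion. ADAMTS proteases cut proteoglycans, procollagens and von Willebrand factor in the matrix and in blood, and MMPs cut collagens, laminins and many other matrix proteins. In liver the family is best known from fibrosis and regeneration, where stellate cells, macrophages and hepatocytes each make some of its members. TIMP1 and TIMP2 bind most MMPs, and TIMP3 also inhibits ADAM17 and several ADAMTS proteases.

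Values are the deposited log2 signals, on which a difference of 1 is a 2-fold change, and the lowest and highest of all values were 0.44 and 13.55. The medians of the 8 arrays lay between 4.27 and 4.33, and arrays correlated with r between 0.978 and 0.989. Vwa8 itself read 8.95 ± 0.041 (SD, n = 4) in wild-type and 5.18 ± 0.12 (n = 4) in knockout cells (exact permutation test over 70 arrangements, two-sided p = 0.0286, the smallest that 4 against 4 arrays allow). All 8 hepatocyte markers listed, among them Alb and Hnf4a, were brighter than the median gene and higher in the knockout. Serpinc1 was brighter only through its knockout arrays, with means of 4.45 in wild-type and 6.79 in knockout cells. Of the markers of other liver cells, none of 8 for stellate cells and fibroblasts, 6 for macrophages and 6 for endothelial cells passed the test. Their mean log2 signals ran from 3.64 to 3.88 (wild type) and 3.58 to 3.76 (knockout) for stellate cells and fibroblasts, from 3.82 to 4.02 and 3.84 to 4.00 for macrophages, and from 3.52 to 3.72 and 3.65 to 3.79 for endothelial cells. Of 4 cholangiocyte markers, Krt7 fell, at -0.52 ± 0.083, and the list's mean ran from 6.75 to 6.86 in wild-type and from 6.56 to 6.76 in knockout cells. In such bulk RNA, fewer cells of a type and less RNA per cell cannot be told apart.

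Of the 77 members, 13 fell and 1, Mmp19, rose, at an adjusted p under 0.05 (limma, two-sided, Benjamini-Hochberg over all 22180 genes). Adamts9, Adam12 and Adamts1 fell furthest, by 2.66-fold, 2.17-fold and 1.98-fold. Over all genes 20.9% passed, 10.4% higher and 10.4% lower. The members' share of 18.2% was thus close to that of all genes, while 16.9% of members fell and 1.30% rose. The median log2 fold change of the 77 members was -0.02, beside -0.003 for all genes.

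The 14 calls lay almost all in the brighter part of the group. With the median gene's mean of 4.57 over all 8 arrays as the divide, 22 members were brighter, and of these 12 fell, 1 rose and 9 did not pass. Among all genes brighter than the median gene 37% passed, 18.6% higher and 18.3% lower, beside 59.1% of these 22 members. These shares describe the probe sets, and Adam8 lay above the divide through its wild-type arrays alone. Of the 55 members not brighter than the median gene 1, Adam24, passed, beside 4.76% of genes in the same range. Signals of different probe sets are no scale of transcript amounts, and with no measure of background, low signal and lack of expression cannot be told apart. The 4 arrays of one genotype all lay beyond the 4 of the other for 15 members, 14 lower and 1 higher, beside 26.1% of all genes (13.2% lower and 12.9% higher).

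**Figure D1:**
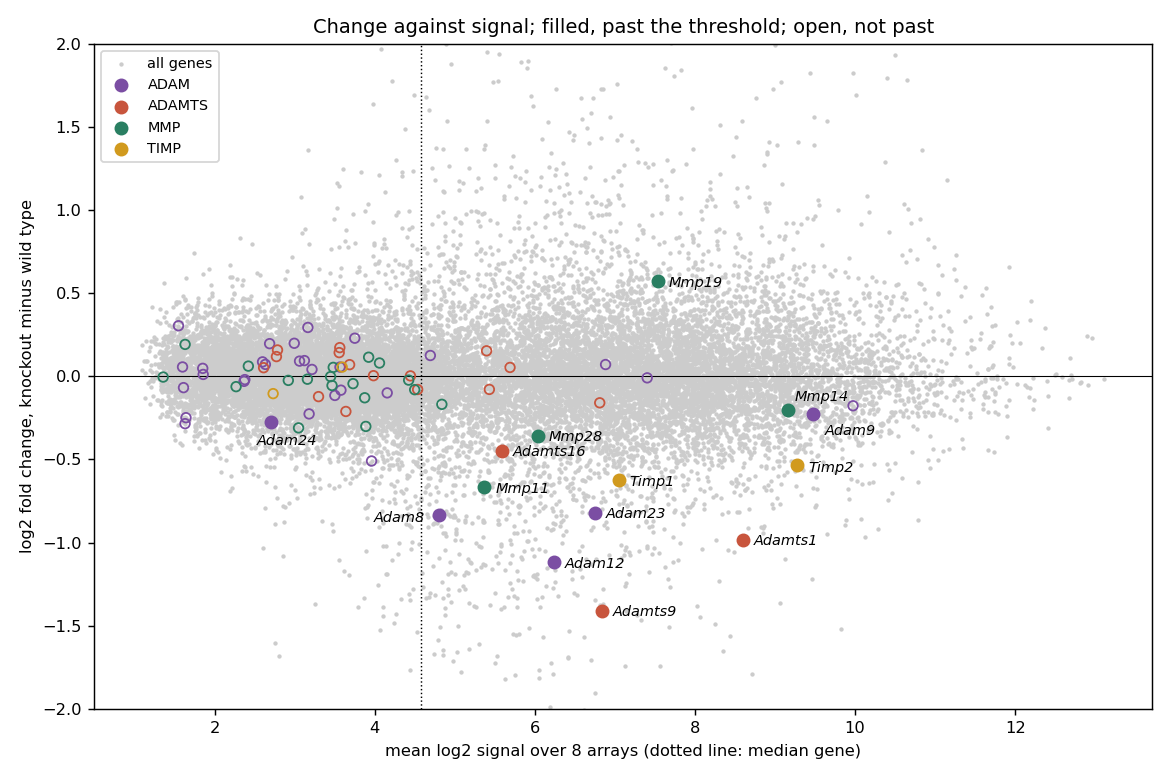
Each point is a gene, with its mean log2 signal over the 8 arrays on the horizontal axis and its log2 fold change (knockout minus wild type) on the vertical axis; genes beyond the vertical range of -2 to 2 are not drawn. Coloured points are the 77 members, filled where they passed the threshold, and 13 of the 14 filled points lie to the right of the median gene at 4.57.

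Of the 4 inhibitors, Timp1 and Timp2 fell, and Timp3 and Timp4 were dim and did not pass (50% called, beside 20.9% of all genes). Timp2, which binds both MMP14 and pro-MMP2, read 9.65, 9.45, 9.60 and 9.48 on the wild-type arrays and 8.98, 8.96, 9.13 and 8.98 on the knockout arrays. Every wild-type array was above every knockout array. The log2 fold change was -0.53 ± 0.070 (SE, n = 4 per group, adjusted p = 0.000693 in limma).

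Timp1, an inhibitor of most secreted MMPs and of ADAM10, read 7.35, 7.28, 7.25 and 7.55 in wild-type and 6.58, 6.75, 6.85 and 6.75 in knockout cells, again with no overlap. It changed by -0.62 ± 0.086 (limma adjusted p = 0.000938). Timp3, which is bound to the matrix, read 2.78 ± 0.083 in wild-type and 2.68 ± 0.19 in knockout cells (SD, n = 4 each), and the groups overlapped. Its log2 fold change had a 95% interval of -0.33 to 0.12. Timp4, best known from heart, read 3.57 ± 0.10 and 3.62 ± 0.17, with an interval of -0.16 to 0.27.

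The ADAMTS genes that fell were Adamts9, Adamts1 and Adamts16, out of 18, and none rose (16.7% called, beside 20.9% of all genes). Adamts9 and Adamts1 belong to the proteases that cut the proteoglycans aggrecan and versican. Adamts9 read 7.56, 7.63, 7.36 and 7.61 in wild-type and 6.19, 6.10, 5.98 and 6.25 in knockout cells, a gap of over 1 between the nearest arrays. It had the largest change of the group, at -1.41 ± 0.086 (limma adjusted p = 8.37e-06).

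In Adamts1 the wild-type arrays lay close together, at 9.09, 9.08, 9.08 and 9.12, and the knockout arrays read 8.03, 8.20, 8.20 and 8.01, all about 1 lower. The log2 fold change was -0.98 ± 0.065 (limma adjusted p = 1.34e-05). The other 5 proteoglycan-cleaving members (Adamts4, Adamts5, Adamts8, Adamts15 and Adamts20) did not pass, and Adamts15 was the only one of them brighter than the median gene, at 5.66 in wild-type and 5.72 in knockout cells.

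Adamts16, a less studied secreted member, read 5.90, 5.98, 5.70 and 5.67 in wild-type and 5.48, 5.16, 5.44 and 5.39 in knockout cells. The groups did not overlap, and the change was -0.45 ± 0.098 (limma adjusted p = 0.0109). Both measured procollagen N-proteinases, Adamts3 and Adamts14, were dimmer than the median gene and did not pass. Adamts13, which cuts von Willebrand factor, was dim as well, at 3.98 ± 0.20 in wild-type and 3.99 ± 0.10 in knockout cells (SD, n = 4 each). The 15 ADAMTS genes that did not pass had log2 fold changes from -0.21 to 0.17.

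The start regions of Adamts9, Adamts1 and Timp1 are shown because these members fell together and lay well above the median gene. The RefSeq windows (build GRCm38.p6) run from 250 bases before to 50 bases after the annotated start, 5′ to 3′ in the direction of the gene. Capitals mark 3 motifs. The AP-1 site TGAGTCA and the GC box CCGCCC were searched on both strands, so that each may also stand as its reverse complement. The TATA box, spelled TATAAA, was searched in the direction of the gene only. The windows are chr6:92943485-92943784 on the minus strand, chr16:85803064-85803363 on the minus strand and chrX:20869916-20870215 on the plus strand.
Adamts9: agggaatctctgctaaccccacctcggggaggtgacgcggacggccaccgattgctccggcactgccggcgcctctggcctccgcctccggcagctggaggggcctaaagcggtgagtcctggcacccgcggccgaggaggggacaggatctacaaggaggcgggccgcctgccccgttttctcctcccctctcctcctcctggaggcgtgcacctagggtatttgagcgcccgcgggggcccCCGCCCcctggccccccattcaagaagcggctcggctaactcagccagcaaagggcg
Adamts1: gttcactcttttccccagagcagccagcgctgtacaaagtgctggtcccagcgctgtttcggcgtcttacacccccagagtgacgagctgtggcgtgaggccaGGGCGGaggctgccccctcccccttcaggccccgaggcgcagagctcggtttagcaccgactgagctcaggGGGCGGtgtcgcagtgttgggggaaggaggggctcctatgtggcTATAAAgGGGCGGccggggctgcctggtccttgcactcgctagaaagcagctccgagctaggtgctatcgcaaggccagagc
Timp1: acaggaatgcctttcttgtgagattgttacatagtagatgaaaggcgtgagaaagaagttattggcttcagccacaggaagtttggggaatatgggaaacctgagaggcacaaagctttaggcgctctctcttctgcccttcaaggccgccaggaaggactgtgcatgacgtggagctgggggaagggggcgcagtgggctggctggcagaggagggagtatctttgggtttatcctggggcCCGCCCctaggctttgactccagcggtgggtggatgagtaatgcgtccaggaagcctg
Each of these windows held a GC box, and Adamts1 alone of them held the TATA box, 32 bases before its start. None held the exact spelling TGAGTCA. Near matches, such as TGAGTAA in the Timp1 window, were not searched for, so an AP-1 site of another spelling may be present.

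Of 33 ADAM genes 5 fell and none rose, so that 15.2% passed, beside 20.9% of all genes. Among the 16 counted here as active proteases these were Adam12, Adam8, Adam9 and Adam24. Adam12, also called meltrin alpha and known from activated stellate cells and from muscle, read 6.68, 6.92, 6.64 and 6.97 in wild-type and 5.67, 5.67, 5.82 and 5.57 in knockout cells. The lowest wild-type array was well above the highest knockout array, and the change was -1.12 ± 0.094 (limma adjusted p = 5.34e-05).

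Adam8, a protease best known from leukocytes, read 5.04, 5.37, 5.24 and 5.21 in wild-type and 4.21, 4.41, 4.34 and 4.57 in knockout cells, without overlap. It changed by -0.83 ± 0.097 (limma adjusted p = 0.000348). The macrophage markers Ptprc (-0.10 ± 0.14), Csf1r (-0.21 ± 0.15) and Adgre1 (0.23 ± 0.091) did not pass, and each was dimmer than the median gene. Cd68, the 1 macrophage marker above it, read 5.47 and 5.58 and did not pass.

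Adam9, a widely expressed sheddase, was bright and changed little. It read 9.55, 9.58, 9.60 and 9.64 in wild-type and 9.40, 9.36, 9.34 and 9.37 in knockout cells, a change of -0.22 ± 0.052 (limma adjusted p = 0.0139). Its arrays did not overlap, but genes near it on chromosome 8 (the 30 nearest genes brighter than the median gene on each side) were also lower, with a median of -0.16. Subtracting that median left Adam9 at -0.07 (limma adjusted p = 0.412; 0.000199 to 0.412 over all alternatives). Adam24, a testis protease, was the only dim member that passed, falling from 2.84 to 2.57 (limma adjusted p = 0.0271). That call was lost on leaving out wild-type replicate 1, 2 or 4 (limma adjusted p = 0.0575, 0.0661 and 0.0596) or knockout replicate 2, 3 or 4 (limma adjusted p = 0.0712, 0.0723 and 0.0614). It was also lost with an intensity trend and robust variances (limma adjusted p = 0.131), and subtracting the median of nearby genes left -0.12 (limma adjusted p = 0.314).

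The main sheddases did not pass the test. Adam10 read 9.99, 10.09, 10.11 and 10.06 in wild-type and 9.92, 9.90, 9.82 and 9.91 in knockout cells. All wild-type arrays were above all knockout arrays, but the difference of -0.18 ± 0.055 missed the threshold (limma adjusted p = 0.0531; 0.00200 to 0.154 over all alternatives, 4 of which put it past). Adam17 read 7.44, 7.42, 7.28 and 7.49 in wild-type and 7.37, 7.31, 7.36 and 7.55 in knockout cells. These ranges overlapped, and the log2 fold change of -0.01 ± 0.074 had a 95% interval of -0.18 to 0.16. Adam15, with a wild-type mean of 6.85 and a knockout mean of 6.92, did not pass either (interval -0.11 to 0.25).

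Of the 17 ADAM genes counted as adhesion proteins or known from the germ line, Adam23 was the one that passed. ADAM23 lacks a working protease site and is a receptor for LGI proteins in neurons. It read 7.19, 7.17, 7.14 and 7.15 in wild-type and 6.27, 6.46, 6.27 and 6.37 in knockout cells. The change was -0.82 ± 0.062 (limma adjusted p = 2.93e-05), while the nearest genes on chromosome 1 had a median of 0.30. Apart from Adam1a, which lay just above the median gene and did not pass, the other members of this class were dim. Adam4, a germ line member, had the largest change of those that did not pass, at -0.51 ± 0.31. Its wild-type arrays were spread from 3.21 (replicate 3) to 4.89, and without replicate 3 it changed by -0.84 (limma adjusted p = 0.00710; 0.00710 to 0.581 over all alternatives). Adam25, a testis member counted here with the active proteases, stood at 0.30 ± 0.19 from a wild-type mean of 1.40 and did not pass.

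**Figure D2:**
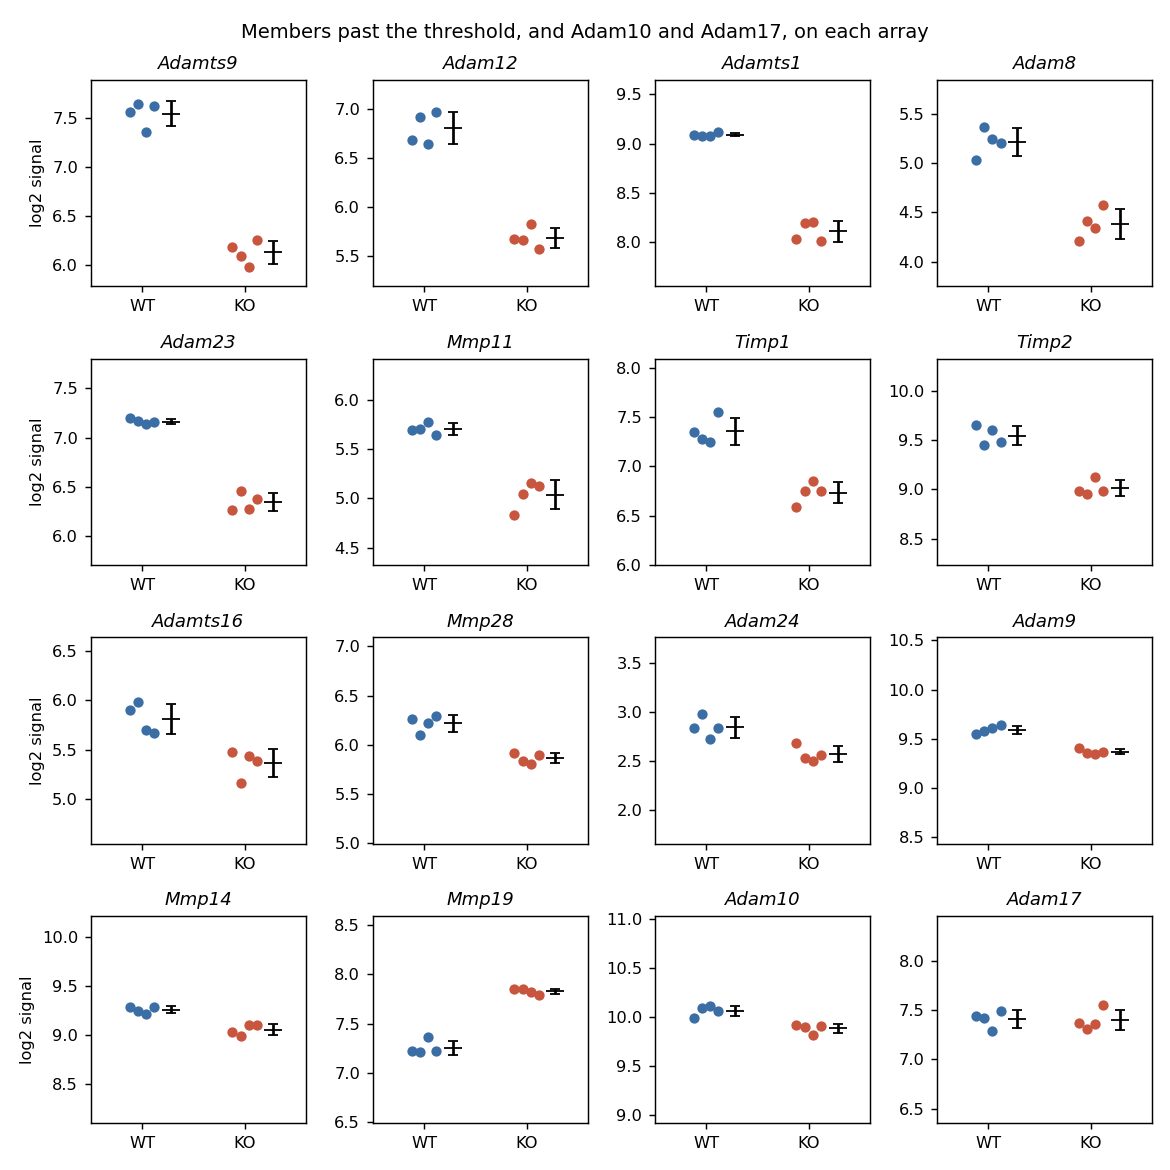
Log2 signal of the 14 members that passed, ordered by their change, and of Adam10 and Adam17, on each of the 4 wild-type (WT) and 4 knockout (KO) arrays; bars give mean ± SD and every panel spans the same range of log2 units. The WT and KO points are apart in 15 panels and overlap for Adam17.

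Of 22 MMP genes Mmp11, Mmp28 and Mmp14 fell and Mmp19 rose, which is 18.2%, beside 20.9% of all genes. Mmp19, a secreted MMP that cuts basement membrane proteins, was the exception in direction. It read 7.23, 7.21, 7.36 and 7.22 in wild-type and 7.85, 7.85, 7.82 and 7.79 in knockout cells, a rise of 0.57 ± 0.057 (limma adjusted p = 0.000146). Genes near it on chromosome 10 were lower, with a median of -0.22, so it rose against its neighbours.

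Mmp11 (stromelysin-3), which furin activates inside the cell, read 5.69, 5.71, 5.78 and 5.64 in wild-type and 4.83, 5.05, 5.15 and 5.12 in knockout cells. It changed by -0.67 ± 0.081 (limma adjusted p = 0.000427). Its other probe set read 5.26 in wild-type and 5.12 in knockout cells and did not pass, and the mean of both gave a change of -0.41. Mmp28 (epilysin), an MMP of skin and other epithelia, read 6.27, 6.10, 6.22 and 6.30 in wild-type and 5.91, 5.84, 5.81 and 5.90 in knockout cells. Its groups did not overlap and it changed by -0.36 ± 0.063 (limma adjusted p = 0.00366).

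Mmp14, the membrane-type protease that activates pro-MMP2, was well above the median gene. It read 9.29, 9.25, 9.22 and 9.29 in wild-type and 9.04, 8.99, 9.10 and 9.10 in knockout cells. The difference, -0.20 ± 0.054, was small and near the threshold (limma adjusted p = 0.0274). It missed on leaving out wild-type replicate 1, 2 or 4 (limma adjusted p = 0.0648, 0.0569 and 0.0694) or knockout replicate 1 or 2 (limma adjusted p = 0.0728 and 0.0793). It also missed with arrays centred on their medians (limma adjusted p = 0.0558) and after subtracting the median of nearby genes, at -0.07 (limma adjusted p = 0.417; 0.00113 to 0.417 over all alternatives).

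The gelatinases were dim. Mmp2, the main partner of MMP14, read 3.75 ± 0.13 in wild-type and 3.71 ± 0.095 in knockout cells (SD, n = 4 each), with a 95% interval of -0.23 to 0.14 for the change. Mmp9 read 4.10, 4.06, 3.79 and 4.22 in wild-type and 3.93, 3.77, 3.69 and 3.56 in knockout cells. These overlapped, and the change of -0.30 ± 0.11 missed the threshold (limma adjusted p = 0.0907), but passed without wild-type replicate 3, at -0.39 (limma adjusted p = 0.0288), and with the median of nearby genes subtracted, at -0.43 (limma adjusted p = 0.0238; 0.0238 to 0.202 over all alternatives). The 18 MMP genes that did not pass had log2 fold changes from -0.31 to 0.19.

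**Figure D3:**
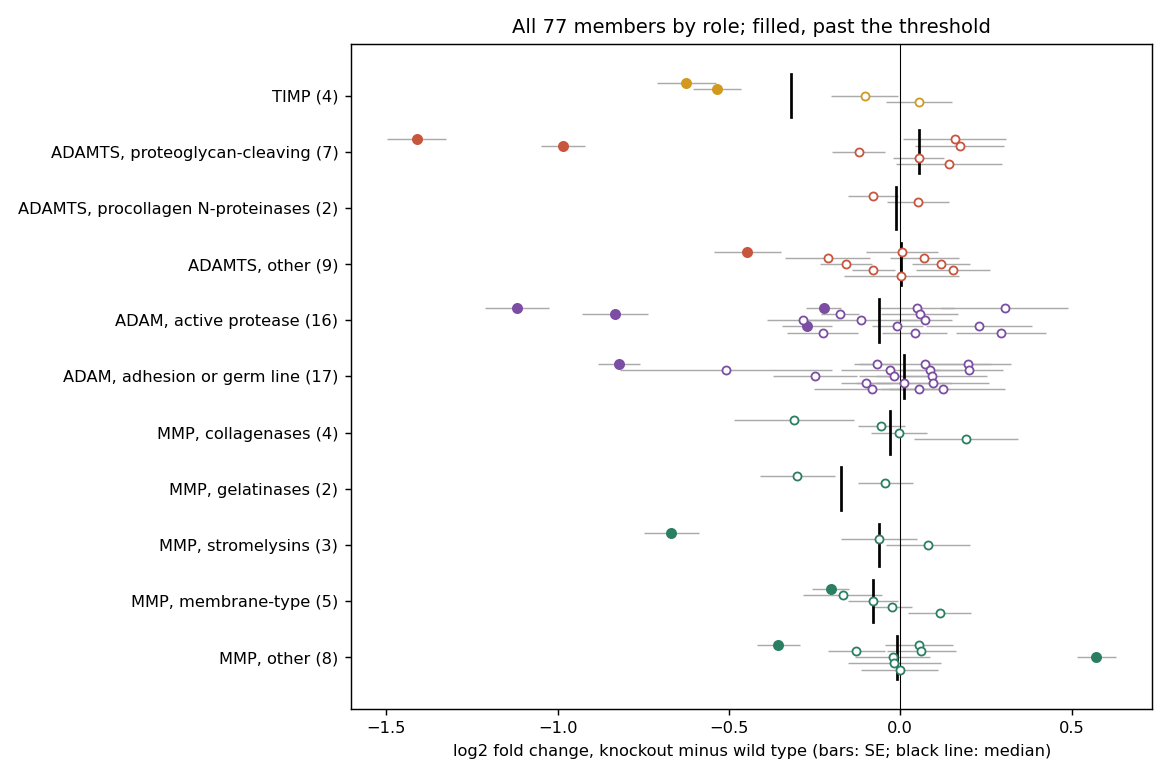
Log2 fold change (knockout minus wild type, bars SE) of all 77 members by role, with the number of genes in each role in parentheses, filled where the gene passed and a black line at each role's median. Both TIMP genes that passed lie at or below -0.53, and the single filled point above 0 is Mmp19 at 0.57.

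The collagenases, most stromelysins and several other MMPs form a row of 10 neighbours on chromosome 9 in RefSeq's gene order (Mmp13, Mmp12, Mmp1b, Mmp3, Mmp1a, Mmp10, Mmp8, Mmp27, Mmp20 and Mmp7). All 10 were dimmer than the median gene, from 1.36 for Mmp1a to 4.06 for Mmp10 as means over the 8 arrays. None passed in limma, beside 4.76% of all genes not brighter than the median gene. At an unadjusted p under 0.05 in limma stood 0 of the 10, beside 1301 of the 11090 genes in that range. With such shares, 0 of 10 does not set the row apart. Mmp13, the main collagenase of mice, read 2.78, 3.33, 3.39 and 3.32 in wild-type and 2.81, 2.60, 2.88 and 3.29 in knockout cells. The groups overlapped, and the change was -0.31 ± 0.17 (limma adjusted p = 0.279).

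Several of these MMP genes are textbook targets of AP-1, the dimers of FOS and JUN proteins. The windows of 3 of them are shown for that site, namely Mmp13 at chr9:7272264-7272563, Mmp3 at chr9:7445572-7445871 and Mmp10 at chr9:7502092-7502391, all on the plus strand, with capitals as above.
Mmp13: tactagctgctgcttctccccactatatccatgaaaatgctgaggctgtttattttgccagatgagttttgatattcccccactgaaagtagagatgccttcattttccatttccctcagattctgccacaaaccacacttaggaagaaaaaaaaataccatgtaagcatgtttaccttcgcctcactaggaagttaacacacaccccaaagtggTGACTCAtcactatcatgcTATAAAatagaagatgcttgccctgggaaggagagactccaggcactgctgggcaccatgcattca
Mmp3: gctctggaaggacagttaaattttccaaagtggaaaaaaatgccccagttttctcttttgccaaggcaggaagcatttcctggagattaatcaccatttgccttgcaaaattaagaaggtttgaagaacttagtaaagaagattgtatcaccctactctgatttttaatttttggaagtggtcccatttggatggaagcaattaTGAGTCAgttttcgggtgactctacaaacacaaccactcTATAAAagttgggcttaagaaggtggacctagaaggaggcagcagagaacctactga
Mmp10: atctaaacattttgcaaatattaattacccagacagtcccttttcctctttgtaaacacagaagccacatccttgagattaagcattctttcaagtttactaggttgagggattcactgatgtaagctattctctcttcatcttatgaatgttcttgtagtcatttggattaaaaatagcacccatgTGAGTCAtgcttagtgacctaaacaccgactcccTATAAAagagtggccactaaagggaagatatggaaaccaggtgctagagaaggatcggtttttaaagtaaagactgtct
In these windows the AP-1 site begins 35, 46 and 63 bases before the annotated start. TATAAA lies downstream of it in each, beginning 16, 7 and 29 bases before the start.

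Windows were at hand for 47 members, and all 10 of the chromosome 9 row were among them. The AP-1 site in its exact spelling, TGAGTCA, stood in 7 of those 10, in 3 of the 37 other members and in 5.95% of all 27025 genes with a window. The TATA box stood in 8 of the 10 and in 9.77% of all genes, and the GC box in none of the 10 and in 38.2% of all genes. Of the 14 members brighter than the median gene that had a window, fallen or not, 12 held a GC box and none held TGAGTCA. Shares among all genes brighter than the median gene were not computed. With TGAGTCA in only 5.95% of all genes, its absence from 14 members is no result about them. Of the 9 that fell, 8 (all but Adam23) held a GC box. Other spellings of the AP-1 site were not counted. A match of letters is a description and not a binding site, and these windows leave out any distant enhancer.

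**Figure D4:**
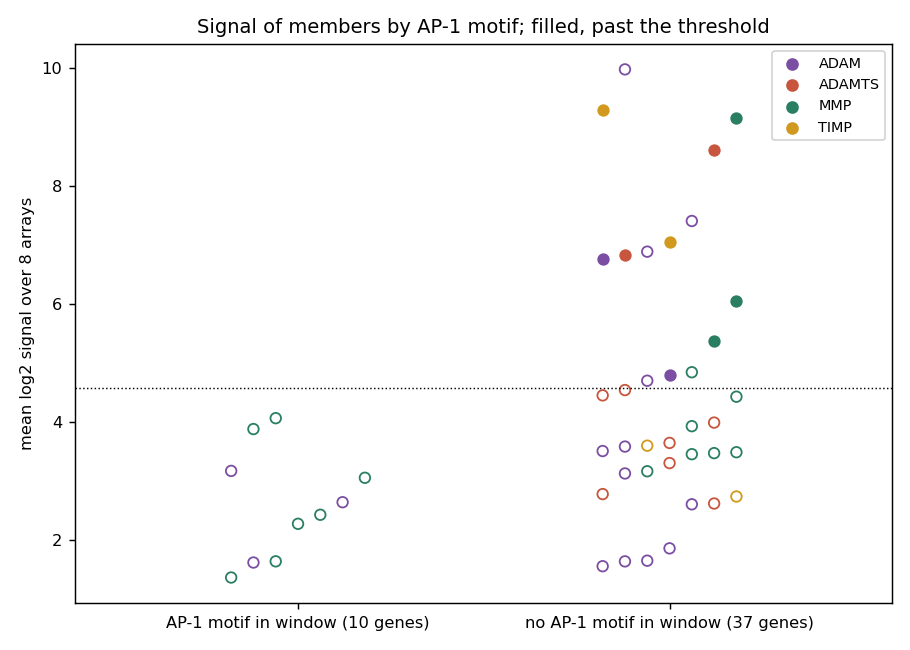
Mean log2 signal over the 8 arrays of the 47 members with a RefSeq start window, split by whether the window holds the exact AP-1 site TGAGTCA on either strand. Colours give the family, filled points passed the threshold and the dotted line is the median gene at 4.57. All 10 members with the motif lie below the line and all are open.

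Of 6 lists of pathway genes outside the family, the genes named are the 5 of each list with the smallest adjusted p, unless said otherwise, and so show each list at its strongest. The lists were chosen with earlier results of these data known. Their shares beside those of all genes are therefore descriptions and no independent test.

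The genes of AP-1 and of ETS and RUNX factors, also known as regulators of these proteases, were mostly lower. Of 15 measured, 11 fell and none rose, and 10 of the 15 were brighter than the median gene. That is 73.3% lower, beside 10.4% of all genes and 18.3% of genes brighter than the median gene, and the list's median log2 fold change was -0.59, beside -0.003 for all genes. Fosl2, a FOS relative, changed by -1.07 ± 0.057, the ETS factors Ets1 and Elk3 by -0.82 ± 0.060 and -0.82 ± 0.068, Runx1 by -0.75 ± 0.069 and Jun by -0.65 ± 0.062. All 5 passed in limma with adjusted p no higher than 0.000118.

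Genes whose products activate or accompany the proteases went both ways, with 7 of 18 lower and 2 higher (median -0.13). The share called was 50%, beside 20.9% of all genes and 37% of genes brighter than the median gene, to which 15 of the 18 belonged. The plasminogen activators Plat and Plau and the urokinase receptor Plaur, which raise plasmin at the cell surface, changed by -1.10 ± 0.095, -1.003 ± 0.12 and -1.06 ± 0.077. Of the convertases that remove the inhibitory propeptide, Pcsk6 rose by 1.33 ± 0.059, while Furin, singled out after its value was seen, stood at 0.01 ± 0.059. Tspan15, a tetraspanin that escorts ADAM10, changed by -0.91 ± 0.094.

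The following partners lie outside those 5 and were singled out after their values were seen. Of the list's other ADAM10 tetraspanins, Tspan17 changed by -0.38 ± 0.066 and Tspan33 by 0.60 ± 0.093. The rest, Tspan5 (-0.15), Tspan14 (-0.12) and Tspan10 (-0.01), did not pass. Rhbdf2 (iRhom2), a partner in the maturation of ADAM17, changed by -0.37 ± 0.081, and Frmd8, which stabilises iRhom proteins, by -0.49 ± 0.085. The related Rhbdf1 (iRhom1) stood at -0.03 ± 0.072 and did not pass. Tspan17, Tspan33, Rhbdf2 and Frmd8 each passed in limma (adjusted p = 0.00302, 0.00175, 0.0107 and 0.00306).

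Of 12 other protease inhibitors 2 rose and 3 fell (median 0.08), which is 41.7% called, beside 20.9% of all genes. The 2 that rose are plasma proteins of liver, Serpinf2 (alpha-2-antiplasmin) by 2.82 ± 0.076 and Pzp, a broad protease trap, by 1.83 ± 0.074. Those that fell were Cst3 (cystatin C, -0.72 ± 0.099, or -0.45 as the mean of its probe sets), Reck, a membrane-anchored MMP inhibitor (-0.37 ± 0.083), and Thbs1 (thrombospondin-1, -0.61 ± 0.15), the last of which missed without wild-type replicate 3 or knockout replicate 1 or 3 (limma adjusted p = 0.0552, 0.0508 and 0.0514).

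Among 15 ADAMTS-like proteins and other proteases of the same superfamily, 2 rose and 1 fell (median 0.02), a share of 20% beside 20.9% of all genes. Adamtsl4, an ADAMTS-like matrix protein without a protease domain, rose by 0.81 ± 0.10. Bmp1, the procollagen C-proteinase, changed by -0.32 ± 0.079, a call lost without wild-type replicate 1 or 2 or knockout replicate 2 (limma adjusted p = 0.0517, 0.0521 and 0.0525). With the median of nearby genes subtracted it stood at -0.18 (limma adjusted p = 0.164). The dim Mep1a, a meprin subunit, stood at 0.46 ± 0.14, past the threshold with all arrays. It missed when wild-type replicate 1, 2 or 3 or knockout replicate 2, 3 or 4 was left out (limma adjusted p from 0.0532 to 0.108), and with array weights (limma adjusted p = 0.0504). Astl (0.33 ± 0.12) and Adamtsl2 (-0.21 ± 0.089) did not pass. Astl passed without wild-type replicate 2, at 0.43 (limma adjusted p = 0.0239; 0.0239 to 0.278 over all alternatives), and Adamtsl2 with the median of nearby genes subtracted, at -0.39 (limma adjusted p = 0.0141; 0.0141 to 0.287).

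Of 31 surface proteins that ADAM10 and ADAM17 release, 12 fell and 4 rose (median -0.08). That is 51.6% called and 38.7% lower; 24 of the 31 were brighter than the median gene, where 37% of all genes were called and 18.3% were lower. The EGF family ligands Nrg1, Hbegf and Ereg changed by -1.65 ± 0.069, -1.03 ± 0.073 and -0.86 ± 0.084, Ereg being singled out after its value was seen. As the mean of its probe sets Ereg stood at -0.51. The list's other measured EGF family ligands, Tgfa (0.06), Btc (0.16), Egf (0.14) and Epgn (-0.05), did not pass. The hyaluronan receptor Cd44 changed by -1.07 ± 0.072 and the membrane chemokine Cxcl16 by -1.23 ± 0.096. Il6ra, the interleukin-6 receptor, rose by 0.87 ± 0.063.

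Of 28 matrix proteins that these proteases cut, 7 fell and 3 rose (median -0.06). The share called was 35.7%, beside 20.9% of all genes. The 7 that fell and the 3 that rose were all among the 16 of the 28 brighter than the median gene. Among all genes in that range 37% were called. Tnc and Vcan lay in it through their wild-type means, with knockout means of 4.02 and 4.50. The falls took in the basement membrane genes Nid1 at -2.05 ± 0.11, Hspg2 (perlecan) at -0.91 ± 0.065 and Col4a1 at -0.70 ± 0.052. Col4a2, singled out after its value was seen, changed by -0.68 ± 0.068. Of the list's other basement membrane genes Lamc1 rose, by 0.27 ± 0.060, and Lama5 (-0.20), Lamb1 (0.11) and Col18a1 (-0.11) did not pass. Tnc (tenascin C) changed by -1.33 ± 0.13. Vcan, which encodes the versican that ADAMTS1 and ADAMTS9 cut, was also picked after the fact, and changed by -1.36 ± 0.17 (limma adjusted p = 0.000472). Vtn (vitronectin), a plasma protein, rose by 1.79 ± 0.062.

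**Figure D5:**
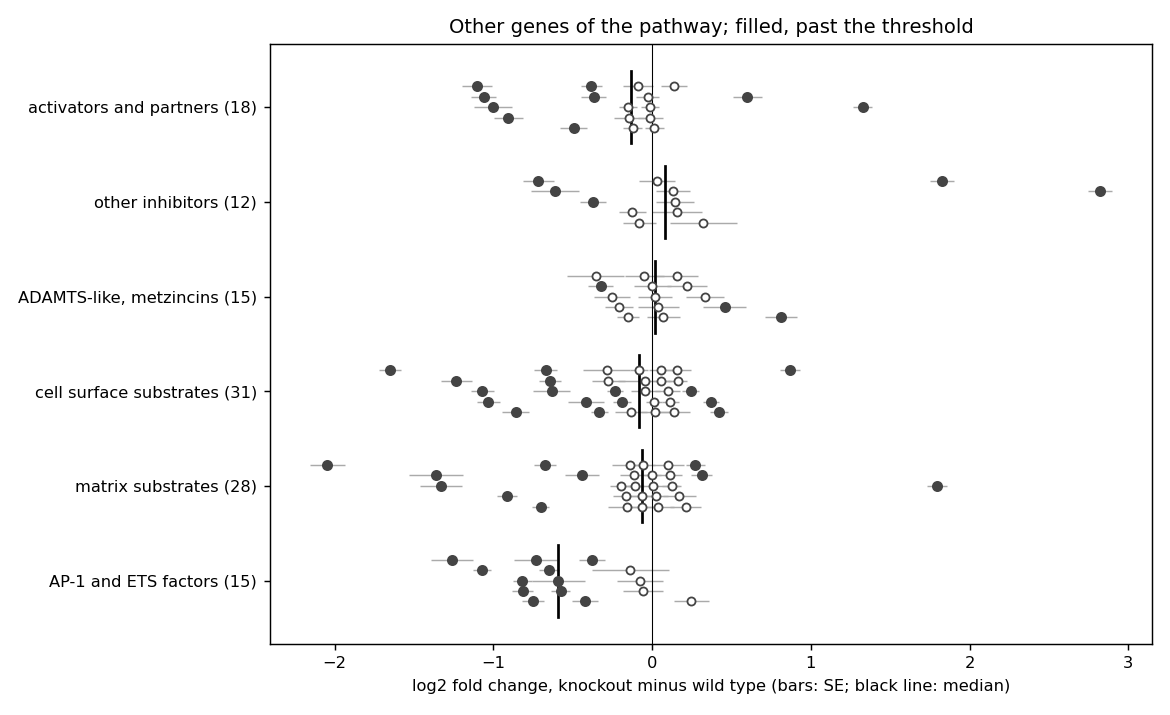
Log2 fold change (knockout minus wild type, bars SE) of the genes on 6 lists of pathway genes outside the family, with the number measured in parentheses, filled where the gene passed and a black line at each list's median. The AP-1 and ETS list has its median at -0.59 and no filled point above 0, and the other lists have filled points on both sides.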

How the data were processed

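Values are the authors' deposited log2 signals, 1 per probe set and array; the log2 scale was read from the values, while their background correction, normalization and summarisation are not stated in the labels. No further normalization was added. Of 41345 probe sets, 23521 had 1 gene symbol in the platform annotation, 1814 several and 16010 none. Each of 22180 genes took its probe set with the highest mean over the 8 arrays.

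Genotypes were compared in limma 3.58.1 (R 4.3.3) with genotype as the only term, two-sided p-values and Benjamini-Hochberg adjustment over all genes, threshold 0.05. The fit was tested on simulated data. Cultures are separate per the design text. The p-values weigh the difference between genotypes against the spread between these cultures. They do not cover the spread between knockout clones, whose number is not stated in the labels. With 4 arrays per group the precision is limited. The members, lists and tests were chosen with earlier results of these data known. Full values are given for Vwa8, all members that passed, 11 members whatever their values and the 4 largest changes that did not pass. They are also given for the 5 genes of each other list with the smallest adjusted p. A further 8 genes, marked in the text, were singled out after their values were seen. Other genes of the same kind on a list are named beside these and were not followed through the alternatives. Nearby genes are the 30 nearest genes brighter than the median gene on each side, by RefSeq order (GRCm38.p6); subtracting their median was chosen after seeing the data. Deviations of same-numbered wild-type and knockout arrays correlated from -0.002 to 0.059, and those of differently numbered arrays from -0.061 to 0.041. Start windows came from RefSeq. Figures used matplotlib 3.10.9 (Python 3.11.15).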

Additional observations from a re-analysis of the deposited data

Results flagged for a closer look

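In 7 of 126 groups of 4 arrays examined for the genes named, 1 array lay far from the others (Dixon's test, which by chance marks about 1 group in 20). Among members, Mmp19 read 7.36 in wild-type replicate 3, against 7.21 to 7.23 on the others. Timp2 read 9.13 in knockout replicate 3, against 8.96 to 8.98, and so lay nearest to the wild type there. Mmp13 read 2.78 in wild-type replicate 1, against 3.32 to 3.39. Outside the family, Mep1a read 3.56 in wild-type replicate 4, Il6ra 8.62 in knockout replicate 2, Col4a1 7.05 in knockout replicate 3 and Fosl2 7.83 in wild-type replicate 3.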

How the results depend on the processing

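Over 17 alternatives between 11 and 16 members passed, and of 62 named genes 45 kept their direction and their side of the threshold in each alternative run for them (15 to 17, since the filters drop dim genes). Adamts9, Adamts1, Adam12, Adam23, Adam8, Mmp11, Mmp28, Mmp19, Timp1, Timp2 and Adamts16 were past it throughout. Leaving out single arrays gave 12 to 16 members, 1 to 2 of them higher, and 1 to 3 genes of the ADAMTS-like and other metzincins list. With the median of neighbouring genes subtracted 2 members were higher, Adam18 joining Mmp19. Without the dimmest 50% of genes 3 other inhibitors passed, as fewer of that list were tested. The replicate number shared between the genotypes, used as a replicate block, left 11 members and 3717 of the 4626 genes; Adam9, Adam24 and Mmp14 were lost. No such pairing is stated in the labels. Directions turned only for members that had not passed and for Furin. Leaving out single arrays took Adam17 from -0.060 to 0.021, Mmp2 from -0.10 to 0.0030, Adamts13 from -0.087 to 0.058, Timp4 from -0.021 to 0.12 and Furin from -0.017 to 0.050. Median centring gave 0.012 for Adam17, quantile normalization -0.030 for Furin, and subtracting neighbours 0.035 for Adam17, -0.16 for Adamts13 and 0.13 for Timp3. The cause was not tested. No measure of background was used, which limits what the dim members can show.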

Other observations

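Probe sets shared with another symbol gave no call. The probe set of Mmp24 and BC029722 read 6.56 in wild-type and 6.55 in knockout cells, while the probe set of Mmp24 alone read 4.92 and 4.76. Those shared by Adam34 and Gm5347 read 2.17 and 2.39 for one and 1.83 and 2.01 for the other. On chromosome 8, which holds 13 ADAM members, Adam9 alone was brighter than the median gene, and Adam9 and Adam24 were the 2 that passed.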
